A study of Mus musculus with 2 samples.

Results

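XY germ cells from testes cultured with a MEK1/2 inhibitor were set against XX germ cells from ovaries cultured with vehicle, to find which parts of the XX programme the inhibited XY cells reached after 72 h and which they did not. The members were the 4 XY E12.5 + 72 h MEKi libraries (replicates 2, 3, 4 and 5) and the 4 XX E12.5 + 72 h DMSO libraries (replicates 4, 7, 8 and 11), 8 of the 40 germ cell libraries of the series. They were chosen by the sex, time and treatment in their labels, and all 8 were in the second of 2 library pools. The 4 XY E12.5 + 72 h DMSO libraries of the same pool (replicates 2, 4, 5 and 6) are given as the background, since they show where XY germ cells stood without the inhibitor.

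Gonads with the mesonephros attached were taken from wild-type mouse embryos of an ASMU Swiss by Oct4-eGFP (129svJT2) cross at E12.5, the day of embryonic development when testis cords have formed, and kept in organ culture for 72 h. MEKi gonads received 500 nM PD0325901 (Mirdametinib), which blocks the kinases MEK1 and MEK2 that activate ERK, and DMSO gonads received the vehicle. The mesonephros was then removed, several gonads were pooled for each replicate, and GFP-positive germ cells were sorted. Inhibitor in the medium reaches the supporting cells as well as the germ cells, and no XX MEKi libraries were analysed here, so the sex chromosomes, the gonad and the inhibitor differ together in this comparison and cannot be told apart.

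Foetal germ cells arrive in the gonad bipotential and are directed by the cells around them. In an ovary, BMP and retinoic acid signals induce Stra8 and Meiosin, whose products work together as a transcription factor, and the cells enter meiosis. They load meiotic cohesin, build a chromosome axis, cut their DNA with SPO11, repair it through DMC1 and other recombination proteins, and join homologous chromosomes with the synaptonemal complex. In a testis, germ cells instead stop in G1, lose pluripotency genes, pass through a period of NODAL signalling, and switch on Nanos2, the piRNA pathway and the de novo DNA methylation genes.

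Counts of unique molecules per gene were measured, and levels are given as CPM, each gene's counts scaled to a common library size with TMM factors. The MEKi libraries held 1940297 to 4784965 counts and the XX libraries 1475175 to 2047565, so the XX group sets the precision for low genes. The labels were checked with Y-linked genes. Eif2s3y was at 89.3 ± 9.26 CPM (SD, n = 4) in MEKi, 74.7 ± 1.91 in XY DMSO and 1.19 ± 0.469 in XX DMSO, and all 4 checked Y-linked genes (Eif2s3y, Ddx3y, Kdm5d and Uty) separated the sexes without overlap. The germ cell genes Ddx4 and Dazl were high in both groups, at 391 ± 60.0 and 380.4 ± 21.9 CPM for Ddx4 and at 1254 ± 286 and 1414 ± 107 CPM for Dazl in MEKi and XX DMSO. The 95% interval of the log2 difference was -0.21 to 0.17 for Ddx4 and -0.46 to -0.08 for Dazl, inside 1.5-fold for both. Other germ cell identity genes differed. By the rules given below, 4 of the 9 tested were higher in MEKi (17.2% of all genes) and none lower (12.8%). A further 2 were within 1.5-fold and 3 unresolved, with a list median of log2 1.10. Dppa3 stood at 646 to 1231 CPM in MEKi and 69.6 to 119 CPM in XX, and Kit at 44.2 to 64.5 and 15.0 to 33.0 CPM.

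The 40 libraries were made in 2 pools, and 16 pairs of libraries, 1 from each pool, carried the same sample index. For the MEKi libraries the partners were XY E12.5 + 24 h DMSO libraries, and for the XX libraries they were XX E12.5 libraries taken at 0 h. The lowest ratio of a library's count to its partner's, over genes with at least 200 counts in the partner, sets an upper limit on carry-over, and it was 6.17% to 12.1% of the partner's counts for MEKi and 0.322% to 1.45% for XX. With that limit taken out of every library, 2609 genes were higher and 1929 lower in MEKi than in XX.

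Among 15252 genes tested, 4578 (30%) differed between MEKi and XX germ cells, 2622 (17.2%) of them higher in MEKi and 1956 (12.8%) lower, by limma treat against a 1.5-fold change at a Benjamini-Hochberg adjusted p (FDR) under 0.05. For 2329 genes (15.3%) the 95% interval of the log2 difference lay inside 1.5-fold, and the remaining 8345 were unresolved. A gene is called lower, higher, within 1.5-fold or unresolved by these rules throughout. The median log2 difference of all genes tested was 0.12. XY DMSO germ cells, fitted in the same model, had 3482 genes higher (22.8%) and 2768 lower (18.1%) than XX. MEKi and XY DMSO differed in 611 higher (4.01%) and 780 lower (5.11%) genes. These 3 comparisons share libraries, so their values are set side by side and no overlap between them was tested. Each MEKi library lay further from the XX mean than from the XY DMSO mean, with a root mean square log2 distance of 1.10 to 1.13 to XX and 0.674 to 0.845 to XY DMSO. Replicates varied little, with a median SD of 0.172 on the log2(CPM + 1) scale in MEKi and 0.241 in XX over the 10254 genes with a mean of at least 10 CPM.

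Meiotic entry was split within its own list. Of the 10 tested genes of meiotic entry and the retinoic acid response, 3 were higher, 4 lower, 1 within 1.5-fold and 2 unresolved, beside 17.2%, 12.8% and 15.3% of all genes for the first 3 calls. Stra8 (chr6:34897098-34916279, + strand, GRCm39), the retinoic acid target that marks entry, stood at 1163, 769.9, 818 and 1043 CPM in the 4 MEKi libraries in replicate order and at 781, 553, 598 and 851 CPM in the XX libraries. The ranges overlapped, and the log2 difference was 0.37 ± 0.14 SE with an interval of 0.09 to 0.64, above 0 at its lower end and past 1.5-fold at its upper end. XY DMSO cells had 117, 114, 59.2 and 117 CPM, all below every MEKi and XX library (log2 difference 3.18 ± 0.16 SE, FDR = 2.34e-18 for MEKi against XY DMSO).

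Meiosin (chr7:18832971-18852293, - strand), the partner of STRA8 on DNA, gave another picture. It stood at 7.94, 12.9, 7.33 and 8.62 CPM in MEKi and 44.9, 17.4, 35.6 and 30.0 CPM in XX, with every MEKi library below every XX library (log2 difference -1.86 ± 0.23 SE, FDR = 7.89e-06). Over all genes tested, 52.9% did not overlap between the groups. Rec8 (chr14:55855455-55862852, + strand), the meiotic cohesin kleisin, was higher in MEKi than in XX, at 139, 145, 161 and 123 CPM against 60.9, 84.3, 40.1 and 98.0 CPM (log2 difference 1.16 ± 0.15 SE, FDR = 0.00115). The XX libraries were the lower and more scattered group for Rec8, and without XX replicate 8 the log2 difference was 0.84 and not called, and with DESeq2 it was 0.92 and not called. Prdm9 (chr17:15763335-15784616, - strand), the histone methyltransferase that places meiotic breaks, was at 82.4, 64.1, 92.0 and 104 CPM in MEKi and 732, 734, 769 and 811 CPM in XX (log2 difference -3.17 ± 0.14 SE, FDR = 4.07e-22). Rec8 and Prdm9 were both higher in MEKi than in XY DMSO, with log2 differences of 1.97 and 2.14, while Meiosin was not called at 1.61.

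The regulators of RNA in meiotic entry were also divided. Meioc and Ythdc2, which act together to end the mitotic programme, were both lower than in XX, at 68.8 and 365 CPM for Meioc and 20.0 and 64.3 CPM for Ythdc2 in MEKi and XX. XY DMSO libraries had 3.99 to 16.3 CPM of Meioc, below every MEKi library, and 15.9 to 23.7 CPM of Ythdc2, overlapping MEKi. Rbm46, an RNA-binding protein needed for meiotic entry, was within 1.5-fold, at 249 ± 37.1 and 248 ± 10.3 CPM. Among the retinoic acid genes, Crabp1, a retinoic acid binding protein, and Rarg, a receptor, were higher in MEKi (log2 difference 2.07 and 1.77), and Crabp2 was unresolved at 0.93. Rarb and Cyp26a1 did not pass the filter on low counts.

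Sequence before the start sites is shown for Stra8 and for 3 axis and synaptonemal complex genes that were lower. The stretches come from RefSeq promoter entries and were located in GRCm39. Capitals mark exact matches, on either strand, to AGGTCA (the half-site of retinoic acid and other nuclear receptors), CACGTG (an E-box), GCGGGAA (an E2F-type motif) or CNCCTCAG (the motif described for STRA8 and MEIOSIN). Of 27025 genes with an entry, the 250 bases before the start held AGGTCA in 15.8%, CACGTG in 6.86%, GCGGGAA in 4.38% and CNCCTCAG in 7.39%. Among the 10157 of them that were tested for expression, the shares were 12.7%, 10.0%, 8.53% and 8.88%. For Stra8, which held AGGTCA at 2 places, only 30 bases around each are given (chr6:34897677-34897706 and chr6:34897833-34897862, + strand), because an annotated exon covers the window. The others are the parts outside annotated exons, for Sycp3 at chr10:88295199-88295430 (+ strand), Sycp1 at chr3:102843456-102843666 (- strand) and Hormad1 at chr3:95466738-95466937 (+ strand).
Stra8, distal: gatggggtgaaaAGGTCAtcttgctccttc
Stra8, proximal: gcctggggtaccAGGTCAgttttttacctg
Sycp3: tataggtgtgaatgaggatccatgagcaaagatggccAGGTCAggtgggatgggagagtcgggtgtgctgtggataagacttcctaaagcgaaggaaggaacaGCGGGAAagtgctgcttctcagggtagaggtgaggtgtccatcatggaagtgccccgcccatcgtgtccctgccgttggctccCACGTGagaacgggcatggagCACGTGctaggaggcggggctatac
Sycp1: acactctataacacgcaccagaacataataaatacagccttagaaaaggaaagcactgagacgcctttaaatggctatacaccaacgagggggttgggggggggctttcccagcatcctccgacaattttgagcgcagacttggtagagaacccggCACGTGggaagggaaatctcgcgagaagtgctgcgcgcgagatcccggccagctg
Hormad1: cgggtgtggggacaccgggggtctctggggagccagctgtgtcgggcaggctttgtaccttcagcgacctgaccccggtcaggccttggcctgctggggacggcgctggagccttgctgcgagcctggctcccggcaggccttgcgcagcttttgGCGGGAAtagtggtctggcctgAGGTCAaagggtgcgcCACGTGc

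Sycp3 and Hormad1 held the nuclear receptor half-site, the E-box and the E2F-type motif in the printed stretch, and Sycp1 held the E-box alone. A match is a description of the letters and not evidence of binding. Of the 43 lower meiotic machinery genes described next, 31 had a promoter entry, and a difference of their shares from those of other genes was not tested. Of these 31, 7 held the E-box (22.6%, beside 10.0% of the tested genes with an entry) and 6 the nuclear receptor half-site (19.4% beside 12.7%). The E2F-type motif was in 9 (29.0% beside 8.53%) and the STRA8 and MEIOSIN motif in 4 (12.9% beside 8.88%). Of the 7 machinery genes with an entry that were not called lower, 2 held the E2F-type motif.

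**Figure D1:**
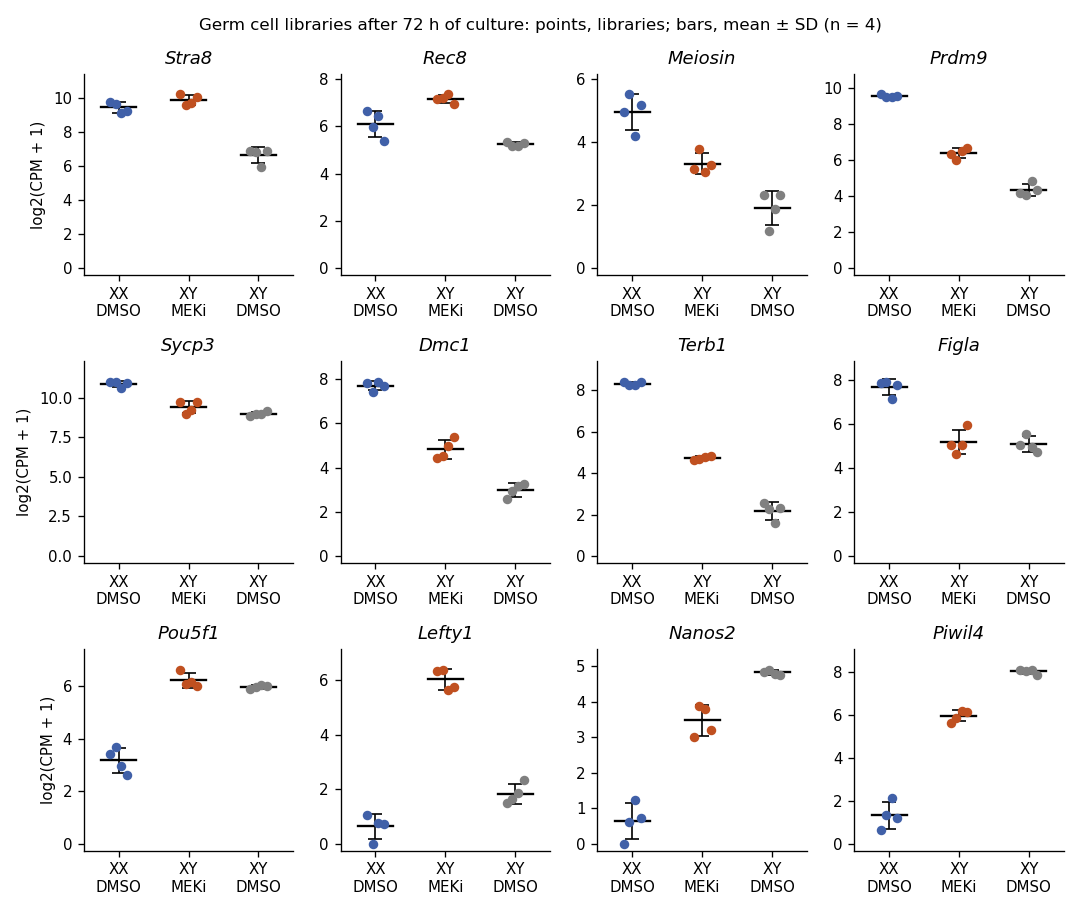
Level of 12 genes in each library, as log2(CPM + 1) on the vertical axis, for XX DMSO, XY MEKi and XY DMSO germ cells after 72 h of culture. Points are libraries and bars the mean ± SD (n = 4). MEKi libraries overlap the XX libraries for Stra8 and lie above them for Rec8, Pou5f1, Lefty1, Nanos2 and Piwil4, and below them for Meiosin, Prdm9, Sycp3, Dmc1, Terb1 and Figla.

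The genes that carry out meiotic recombination and synapsis were lower in MEKi-treated XY germ cells than in XX germ cells almost throughout. Of the 52 tested genes in 6 lists (cohesin and axis, synaptonemal complex, double-strand breaks, strand exchange, crossover, and telomere attachment), 43 were lower (12.8% of all genes), none was higher (17.2%), 4 were within 1.5-fold (15.3%) and 5 were unresolved. Rec8, which is also a cohesin gene and was higher, is counted with the entry genes and is not among the 52. The median log2 difference of the 52 was -1.54, beside 0.12 for all genes. These sums come from pooled cells, in which fewer meiotic cells and less RNA per cell cannot be told apart. In XY DMSO cells, 44 of the 52 were lower than in XX (18.1% of all genes, list median -2.12), and 11 of the 52 were higher in MEKi than in XY DMSO (4.01% of all genes), with none lower. The 54 genes of these lists that were counted, which include the 52 tested, took 0.607% to 0.751% of the counts in the MEKi libraries. They took 1.74% to 1.84% in XX and 0.413% to 0.444% in XY DMSO. The MEKi and XX ranges were separate (exact permutation test, two-sided p = 0.0286, the smallest that 4 against 4 libraries allow, adjusted p = 0.0571 over 10 shares).

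Cohesin and axis proteins hold sister chromatids and form the core on which chromosomes pair. With Rec8 included, 9 were tested, of which 7 were lower, Rec8 was higher and 1 was within 1.5-fold. Sycp3 (chr10:88295431-88309099, + strand), the core axis protein, stood at 848, 499.7, 593 and 837 CPM in MEKi and 2016, 1542, 1979.7 and 2024 CPM in XX (log2 difference -1.57 ± 0.11 SE, FDR = 2.31e-10). The groups did not overlap, although XX replicate 7 was lower than the other XX libraries. Smc1b and Stag3, the cohesin subunits that act with REC8, were at 1223 and 3248 CPM and at 288 and 583 CPM in MEKi and XX (log2 difference -1.51 and -0.99). Rad21l, an alternative kleisin to REC8, was lower by more, at 7.51 and 65.8 CPM (log2 difference -3.04 ± 0.22 SE). Hormad1, an axis protein that recruits the break machinery, was at 52.1 and 158 CPM, and Trip13, the ATPase that removes HORMA proteins, was within 1.5-fold at 70.4 and 56.9 CPM.

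All 6 synaptonemal complex genes were lower. Sycp1 (chr3:102725709-102843455, - strand), the transverse filament that zips homologues together, stood at 631, 502, 521 and 651 CPM in MEKi and at 2292, 2109, 2196 and 2105 CPM in XX (log2 difference -1.96 ± 0.09 SE, FDR = 3.41e-18). The largest difference of the list was in Syce3, at 38.6 ± 7.57 and 438 ± 80.4 CPM (log2 difference -3.60 ± 0.15 SE, FDR = 4.14e-24), and the smallest in Syce1, at a log2 difference of -1.46. XY DMSO cells had 318 ± 22.3 CPM of Sycp1 and 24.7 ± 7.05 CPM of Syce3.

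Break formation showed 6 of 8 genes lower. Spo11 (chr2:172819493-172835369, + strand), the enzyme that cuts DNA in meiosis, was at 3.97, 5.73, 5.95 and 7.05 CPM in MEKi and 26.8, 32.1, 36.2 and 25.7 CPM in XX (log2 difference -2.34 ± 0.26 SE, FDR = 9.54e-08). Its partner Top6bl was at 12.1 and 60.1 CPM, and Iho1, Mei1 and Ankrd31, which assemble the break machinery on the axis, had log2 differences of -2.30, -2.52 and -1.90. Rec114, a further subunit of that machinery, was within 1.5-fold at 57.3 ± 6.83 and 52.7 ± 15.0 CPM. Mei4, its direct partner, was unresolved with an interval of -0.70 to 0.54. Against XY DMSO, Iho1 was higher in MEKi (log2 difference 1.54 ± 0.31 SE, FDR = 0.0226), Ankrd31 and Rec114 were within 1.5-fold and the other 5 were unresolved, with a median log2 difference of 0.86 over the list.

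Of the 11 tested strand exchange genes, 7 were lower, 1 was within 1.5-fold and 3 were unresolved. Dmc1 (chr15:79445691-79489351, - strand), the meiotic recombinase, stood at 20.8, 21.8, 30.1 and 40.4 CPM in MEKi and at 170.4, 233, 206 and 229.7 CPM in XX (log2 difference -2.89 ± 0.15 SE, FDR = 1.02e-18). It was higher in MEKi than in XY DMSO, which had 4.92, 6.69, 7.99 and 8.63 CPM (log2 difference 2.02 ± 0.33 SE, FDR = 8.96e-04). Meiob, a single-strand DNA binding protein of meiosis, was at 46.8 and 274 CPM (log2 difference -2.65). Brca2, which loads recombinases onto DNA, was lower at 241 and 688 CPM, and its meiotic partners Hsf2bp and Brme1 were lower with log2 differences of -1.13 and -1.48. Mnd1, Fignl1 and Swsap1 were unresolved, at log2 differences of 0.47, -0.82 and -0.57. Spata22, the partner of MEIOB, did not pass the filter, with 0 counts in all MEKi libraries and 2.31 ± 1.31 CPM in XX.

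Of the 12 tested crossover genes, 11 were lower. Msh4 and Msh5, which stabilise crossover intermediates, were at 12.3 and 63.6 CPM and 34.1 and 239.6 CPM in MEKi and XX. Hfm1, a helicase of the same pathway, was at 50.9 and 369.8 CPM. Mlh3, which resolves crossovers late in prophase, differed less, at log2 -1.01. Redic1 was unresolved at -0.69 ± 0.29 SE.

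Telomere attachment to the nuclear envelope, which moves chromosomes for pairing, had 6 of 7 genes lower. Terb1 (chr8:105173351-105236545, - strand), which bridges telomeres to the envelope, stood at 23.8, 25.1, 26.4 and 27.0 CPM in MEKi, 301, 308, 335 and 332 CPM in XX and 4.92, 3.76, 2.00 and 3.98 CPM in XY DMSO. MEKi libraries thus lay between the others with no overlap, far below XX (log2 difference -3.63 ± 0.15 SE, FDR = 6.05e-24) and above XY DMSO (log2 difference 2.74 ± 0.41 SE, FDR = 7.03e-05). Speedya, the CDK2 activator at telomeres, was at 35.6 and 325 CPM, while Cdk2 itself, which is also used in mitotic cells, was within 1.5-fold at 87.0 and 77.5 CPM.

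**Figure D2:**
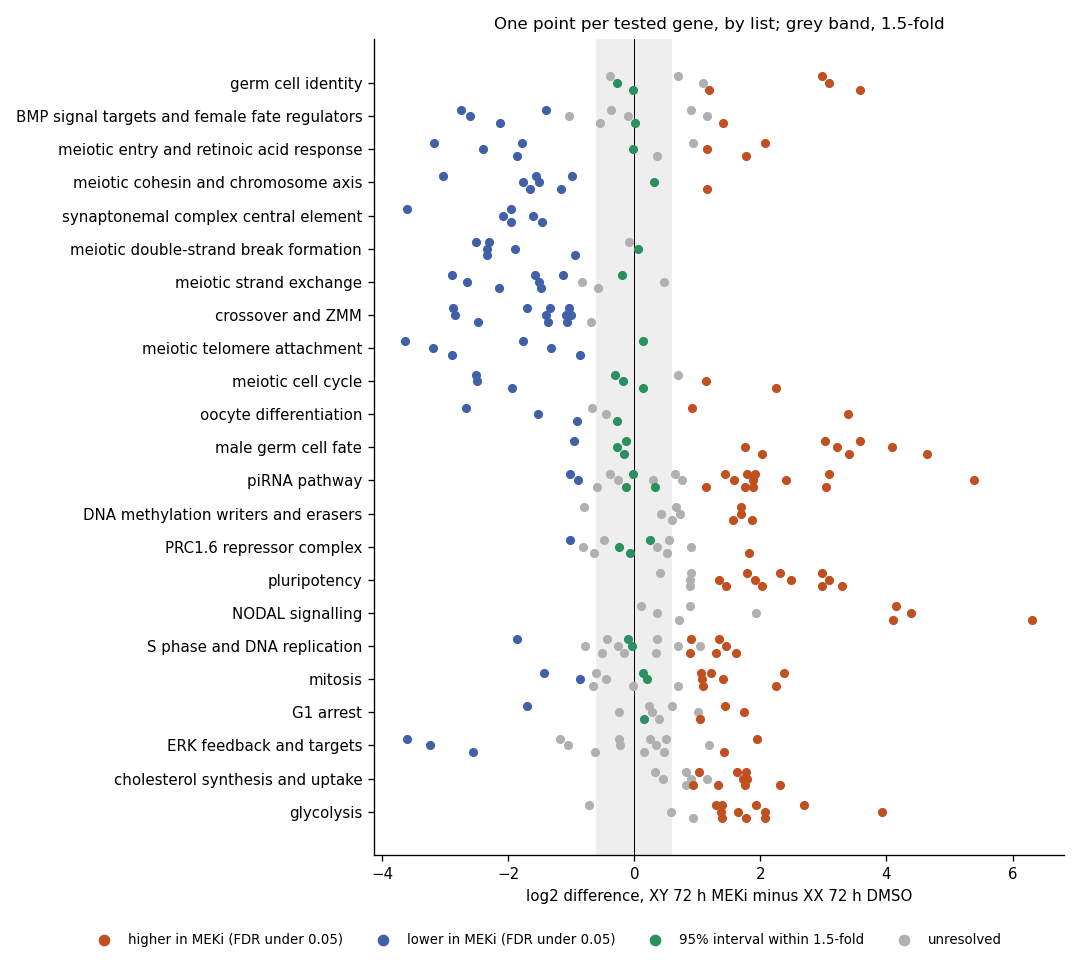
Log2 difference between XY 72 h MEKi and XX 72 h DMSO germ cells on the horizontal axis, with 1 point per tested gene in the lists named on the vertical axis. Colours give the call and the grey band marks 1.5-fold. The 6 meiotic machinery lists lie to the left, where the only point called higher is Rec8, drawn here with the cohesin genes but not among the 52, and the male, piRNA, pluripotency, NODAL, cholesterol and glycolysis lists lie mostly to the right.

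MEKi levels of several of these genes were near those of XX germ cells after 24 h in DMSO, which were in the other library pool, so the values are set side by side without a test. Sycp1 was at 576 ± 75.5 CPM in MEKi at 72 h and 580.0 ± 117 CPM in XX at 24 h. Prdm9 was at 85.6 ± 16.8 and 105 ± 64.7 CPM, Terb1 at 25.6 ± 1.42 and 35.8 ± 19.1 CPM, and Syce3 at 38.6 ± 7.57 and 37.6 ± 20.5 CPM. Rec8 was not, at 142 ± 15.7 CPM in MEKi and 335 ± 35.1 CPM in XX at 24 h. The median of the 52 group means was 45.5 CPM in MEKi at 72 h, 57.8 CPM in XX at 24 h, 28.5 CPM in XX at 0 h and 102.5 CPM in XX at 72 h. It was 35.1 CPM in XY DMSO at 72 h, so the genes named here are examples and no stage was assigned to the MEKi cells.

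BMP signalling in the ovary acts before and beside Stra8, and 3 of its targets, Id1, Id3 and Msx1, were lower in MEKi than in XX. Of the 12 tested BMP targets and female fate regulators, 4 were lower (12.8% of all genes), 1 higher (17.2%), 1 within 1.5-fold (15.3%) and 6 unresolved. Id1 (chr2:152566218-152579544, + strand), a direct SMAD target that blocks bHLH factors, stood at 9.93, 14.1, 14.3 and 14.5 CPM in MEKi, 95.5, 92.3, 116 and 73.3 CPM in XX and 6.71, 3.76, 2.66 and 2.65 CPM in XY DMSO. It was lower in MEKi than in XX (log2 difference -2.75 ± 0.19 SE, FDR = 1.16e-14) and higher than in XY DMSO (log2 difference 1.73 ± 0.40 SE, FDR = 0.0346). Id3 and the homeobox gene Msx1, a BMP target in germ cells, followed, both lower than in XX, at 21.0 and 87.0 CPM and 2.71 and 17.0 CPM (log2 difference -2.14 and -2.60). Irx3, a homeobox gene of the foetal ovary, was at 8.91 ± 2.90 CPM in MEKi, 23.8 ± 2.18 CPM in XX and 1.36 ± 0.918 CPM in XY DMSO, lower than XX (log2 difference -1.39 ± 0.24 SE, FDR = 0.00375) and higher than XY DMSO (log2 difference 2.76 ± 0.53 SE, FDR = 0.00168). Irx3 is also a marker of ovarian support cells. Id4 was within 1.5-fold, and Smad7, an inhibitor of the pathway, was higher at log2 1.41 ± 0.33 SE.

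Oocyte regulators were divided. Of 14 listed, 8 were tested, and 3 were lower, 2 higher, 1 within 1.5-fold and 2 unresolved, beside 12.8%, 17.2% and 15.3% of all genes for the first 3 calls. Figla (chr6:85993153-85997978, + strand), the bHLH factor that drives the zona pellucida genes, stood at 31.3, 24.0, 31.9 and 59.6 CPM in MEKi and at 236, 139, 216 and 229 CPM in XX (log2 difference -2.67 ± 0.16 SE, FDR = 1.20e-16). XY DMSO libraries had 32.2, 46.0, 30.0 and 25.2 CPM, overlapping MEKi. Taf4b and Ybx2, which sustain oocyte transcription and stored mRNA, were lower at log2 -0.92 and -1.53. Sohlh1 and Sohlh2, bHLH partners of oocytes and of spermatogonia, were higher in MEKi than in XX, at 160.1 and 16.9 CPM and 108 and 57.4 CPM. Their XY DMSO levels were far apart, with 225 ± 19.6 CPM for Sohlh1 and 11.7 ± 4.35 CPM for Sohlh2, so Sohlh2 was higher in MEKi than in either control (against XY DMSO, log2 difference 3.25 ± 0.22 SE, FDR = 4.30e-14). Lhx8, another oocyte factor, was unresolved against XX at 10.2 and 13.8 CPM, with 1.81 ± 0.393 CPM in XY DMSO.

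Of 16 mitosis genes, 6 were higher in MEKi than in XY DMSO and none lower, and of 18 S phase genes 10 were higher and none lower, beside 4.01% higher and 5.11% lower of all genes. Against XX, 7 of the mitosis genes were higher, 2 lower, 2 within 1.5-fold and 5 unresolved, beside 17.2% higher and 12.8% lower of all genes. Ccnb1 (chr13:100915153-100923116, - strand), the cyclin that drives entry into mitosis, stood at 242, 169, 209 and 240.2 CPM in MEKi, 47.0, 30.8, 35.6 and 60.0 CPM in XX and 105, 125, 127 and 161 CPM in XY DMSO (log2 difference 2.25 ± 0.18 SE, FDR = 1.45e-11 against XX). Aurkb and Plk1, kinases of mitotic division, were higher at log2 2.37 and 1.41. Mki67, a marker of cycling cells, was at 252, 220.4, 235 and 251 CPM in MEKi and 332, 363, 382 and 406 CPM in XX. The libraries did not overlap, but the log2 difference of -0.65 ± 0.13 SE was not called against 1.5-fold (FDR = 0.609). XY DMSO cells had 50.5 ± 13.8 CPM of Mki67, lower than MEKi (log2 difference 2.27 ± 0.17 SE, FDR = 4.57e-11). Ccna2 was higher in MEKi than in XX (log2 difference 1.22), and the spindle checkpoint kinase Bub1 and the passenger protein Birc5 were lower (log2 difference -1.43 and -0.86).

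Of the S phase genes, 6 were higher in MEKi than in XX, 1 lower, 2 within 1.5-fold and 9 unresolved, and the shares of all genes to set beside these and the next counts are 17.2%, 12.8% and 15.3%. The helicase subunits Mcm2, Mcm3, Mcm6 and Mcm7 were higher with log2 differences of 1.30, 0.88, 0.90 and 1.62, while Mcm4 and Mcm5 were unresolved at 0.70 and -0.79. Pcna, the replication clamp, was within 1.5-fold at 158 ± 17.8 and 158 ± 12.4 CPM, against 70.4 ± 9.07 CPM in XY DMSO. Ccne2 was the lower gene of that list, at 144 and 515 CPM. Among 9 tested genes of the meiotic cell cycle, Ccnb3, Atr and Fbxo47 were lower (log2 difference -2.51, -1.93 and -2.49), Ccnb1 and Fzr1 were higher (log2 difference 2.25 and 1.14), Chek1, H2ax and Ccnb2 were within 1.5-fold and Cdk1 was unresolved. Of 11 genes of G1 arrest, the inhibitors Cdkn1a and Cdkn1b and the cyclin Ccnd3 were higher, Cdkn2c was lower, Cdkn1c was within 1.5-fold and 6 were unresolved. Cdkn1b stood at 21.3, 18.6, 19.4 and 17.2 CPM in MEKi and 2.06, 8.70, 11.6 and 10.2 CPM in XX (log2 difference 1.44 ± 0.32 SE, FDR = 0.0217), and without XX replicate 4, its lowest library, the log2 difference was 0.82 and not called, as was the 1.18 that DESeq2 gave.

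Most genes of male germ cell fate were above the XX level. Of 12 tested, 8 were higher than in XX (17.2% of all genes), 1 lower (12.8%) and 3 within 1.5-fold (15.3%), with a median log2 difference of 2.52. Against XY DMSO, 5 of the 12 were lower in MEKi (5.11% of all genes) and none higher. Nanos2 (chr7:18721325-18722887, + strand), the RNA-binding protein that fixes male fate and represses meiosis, stood at 6.95, 13.8, 12.9 and 8.23 CPM in MEKi, 0.516, 1.34, 0.647 and 0 CPM in XX and 27.7, 28.8, 26.6 and 25.9 CPM in XY DMSO. Every MEKi library was above every XX library (log2 difference 4.09 ± 0.72 SE, FDR = 4.77e-05) and below every XY DMSO library (log2 difference -1.25 ± 0.23 SE, FDR = 0.0377), with 4 counts in all for XX. Dppa4, a chromatin protein of pluripotent and male germ cells, was at 303, 283, 292 and 274 CPM in MEKi and 33.0, 23.4, 20.1 and 31.0 CPM in XX (log2 difference 3.41 ± 0.19 SE, FDR = 1.29e-18). XY DMSO cells had 794 ± 81.9 CPM, and MEKi was lower than these (log2 difference -1.45 ± 0.10 SE, FDR = 1.12e-09). Dnd1, the partner of NANOS2, and Nanos3 were higher than in XX at log2 3.21 and 3.58. Lin28b, a repressor of let-7, was the lower one (log2 -0.96), and Brdt, Elavl2 and Dazl were within 1.5-fold. The list also holds Kdm5d, which is Y-linked and cannot be expressed by XX cells.

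The piRNA pathway, which silences transposons in male germ cells, had 12 of 23 genes higher (17.2% of all genes), 2 lower, 3 within 1.5-fold and 6 unresolved. The shares lower and within were near the 12.8% and 15.3% of all genes. Piwil4 (chr9:14607526-14652036, - strand), the nuclear PIWI protein that guides DNA methylation, stood at 48.6, 57.8, 72.5 and 68.6 CPM in MEKi, 1.55, 3.35, 1.29 and 0.535 CPM in XX and 274, 265, 276 and 231 CPM in XY DMSO (log2 difference 5.39 ± 0.57 SE, FDR = 4.45e-10 against XX and log2 difference -2.03 ± 0.12 SE, FDR = 1.35e-13 against XY DMSO). Morc1 and Spocd1, which act with it on chromatin, were higher than in XX at log2 3.09 and 3.04, and so were Piwil2, Tdrd1 and Tdrd5 at 1.88, 1.88 and 1.76. Tex15 and Tdrkh were lower (log2 difference -1.03 and -0.89), and Mov10l1, Fkbp6 and Ddx4 were within 1.5-fold.

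Of 9 tested genes that write or erase DNA methylation, Dnmt3a, Dnmt3b, Dnmt3l and Tet1 were higher than in XX (17.2% of all genes) and 5 were unresolved. Dnmt3a was at 228 ± 13.4 CPM in MEKi, 69.6 ± 7.50 CPM in XX and 536 ± 26.8 CPM in XY DMSO, higher than XX (log2 difference 1.70 ± 0.12 SE, FDR = 1.28e-11) and lower than XY DMSO (log2 difference -1.21 ± 0.09 SE, FDR = 1.98e-07). Dnmt3l (chr10:77877781-77899456, + strand), the cofactor without enzyme activity, stood at 8.93, 11.8, 22.4 and 10.6 CPM in MEKi, 4.13, 2.01, 5.18 and 3.75 CPM in XX and 135, 177, 131 and 107 CPM in XY DMSO. The MEKi and XX libraries did not overlap (log2 difference 1.86 ± 0.49 SE, FDR = 0.0217), but the call was lost without XX replicate 4, XX replicate 11 or MEKi replicate 4, at log2 differences of 1.87, 1.85 and 1.38, and with no filter on low counts, at 1.75. PRC1.6, a Polycomb complex that represses meiotic genes, had 1 of its 12 genes higher, 1 lower, 3 within 1.5-fold and 7 unresolved. Calls each way were fewer than the 17.2% and 12.8% of all genes. The higher one was E2f6, its DNA-binding subunit, at 30.2 ± 4.89 and 8.37 ± 1.16 CPM (log2 difference 1.82 ± 0.27 SE, FDR = 1.06e-04), and the lower one was Yaf2 at log2 -1.03. Mga, the scaffold that carries its E-box binding domain, was unresolved at log2 -0.64, with Max within 1.5-fold.

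Pluripotency genes were higher in MEKi than in XX for 11 of 15 (17.2% of all genes), with 4 unresolved, none lower and a median log2 difference of 1.92. Pou5f1 (chr17:35816789-35822274, + strand), which encodes OCT4, stood at 97.8, 66.2, 70.6 and 63.1 CPM in MEKi, 11.9, 6.69, 5.18 and 9.64 CPM in XX and 57.7, 62.3, 64.6 and 63.0 CPM in XY DMSO. MEKi and XX did not overlap (log2 difference 3.08 ± 0.28 SE, FDR = 1.19e-10), and MEKi was within 1.5-fold of XY DMSO (log2 difference 0.21). The sort used GFP driven from this gene, and the part of the sort in its level was not tested. Sall4 was at 217 and 23.1 CPM, Nanog at 15.0 and 1.88 CPM and Sox2 at 80.2 and 23.3 CPM in MEKi and XX. Nanog was also higher in MEKi than in XY DMSO (log2 difference 1.80 ± 0.39 SE, FDR = 0.0190), whereas Utf1 was lower (log2 difference -1.36 ± 0.12 SE, FDR = 2.52e-06).

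Of the 9 tested NODAL signalling genes, 4 were higher than in XX (17.2% of all genes) and 5 unresolved. Lefty1 (chr1:180762587-180765971, + strand), a secreted inhibitor that NODAL itself induces, stood at 79.9, 82.2, 48.6 and 52.5 CPM in MEKi, 0, 0.669, 0.647 and 1.07 CPM in XX and 1.79, 2.09, 2.66 and 3.98 CPM in XY DMSO. It was higher in MEKi than in XX (log2 difference 6.32 ± 0.72 SE, FDR = 1.67e-09) and than in XY DMSO (log2 difference 4.50 ± 0.46 SE, FDR = 2.43e-09), with 4 counts in all for XX. Lefty2, a further target of the pathway, and Otx2 were higher than in XX at log2 4.39 and 4.15. The ligand Nodal was unresolved at 2.99 and 0.655 CPM, and so were its receptors Acvr1b and Acvr2b and the coreceptor Tdgf1. Lefty1 was at 99.1 CPM in the XY 24 h DMSO libraries that share indices with MEKi, and with the limit on carry-over taken out the log2 difference to XX was 6.25.

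**Figure D3:**
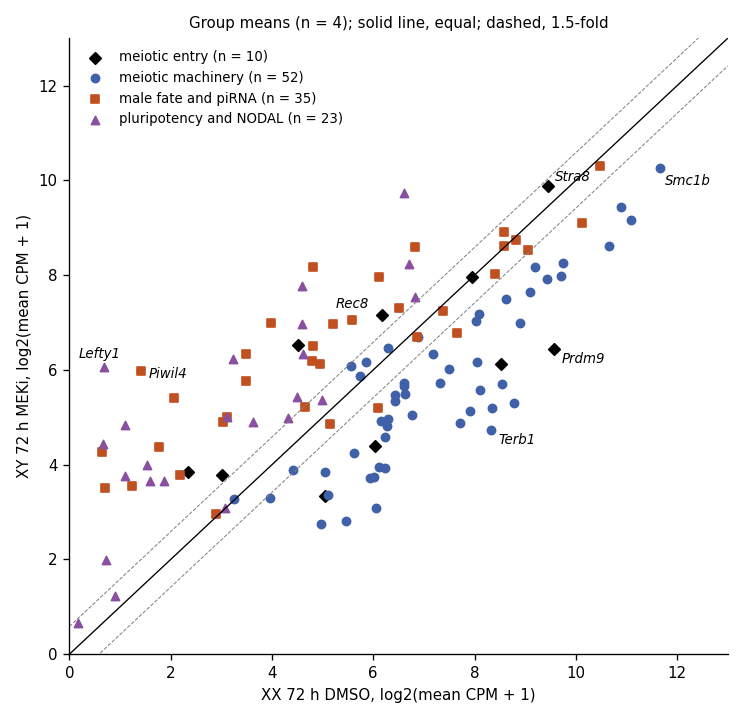
Mean level in XX 72 h DMSO (horizontal axis) against XY 72 h MEKi germ cells (vertical axis), as log2(mean CPM + 1), with 1 point per tested gene of the lists in the key and 4 libraries behind each mean. The solid line marks equal levels and the dashed lines 1.5-fold. Meiotic machinery genes lie mostly below the line, pluripotency, NODAL, male fate and piRNA genes mostly above it, and the 10 meiotic entry genes on both sides.

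MEK activates ERK, which induces its own feedback inhibitors. Of 16 tested ERK targets and feedback genes, 3 were lower in MEKi than in XX (Etv1, Etv4 and Spry4), 2 higher (Spred2 and Ier3) and 11 unresolved, near the 12.8% and 17.2% of all genes. Etv4, an ETS factor induced by ERK, was at 0.562 ± 0.651 CPM in MEKi, 3.89 ± 1.56 CPM in XX and 3.99 ± 2.13 CPM in XY DMSO (log2 difference -3.60 ± 0.66 SE, FDR = 1.20e-04 against XX and log2 difference -3.58 ± 0.65 SE, FDR = 4.02e-04 against XY DMSO). Dusp6, a phosphatase that ERK induces, was low in all 3 groups, at 4.51, 3.53 and 7.39 CPM in MEKi, XX and XY DMSO.

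Glycolysis had 11 of 14 genes higher in MEKi than in XX (17.2% of all genes) and 3 unresolved, with a median log2 difference of 1.52. In XY DMSO, 13 of the 14 were higher than in XX (22.8% of all genes), with a median of 2.01. Against XY DMSO, 1 of the 14 was higher in MEKi (4.01% of all genes) and 2 were lower (5.11%), with a median of -0.55. Hk2, a hexokinase, was at 76.4 ± 5.35 CPM in MEKi, 4.80 ± 0.653 CPM in XX and 27.6 ± 5.02 CPM in XY DMSO, higher than in XX (log2 difference 3.93 ± 0.34 SE, FDR = 4.82e-12) and than in XY DMSO (log2 difference 1.48 ± 0.16 SE, FDR = 1.60e-05). Eno1 and Ldha, which act late in the pathway, were at 183 and 28.4 CPM and 93.9 and 25.0 CPM in MEKi and XX. Cholesterol synthesis and uptake had 9 of 15 genes higher in MEKi than in XX, beside the same 17.2%, and 6 unresolved. In XY DMSO, 5 of the 15 were higher than in XX, and against XY DMSO 3 were higher in MEKi and none lower. Fdft1, which makes squalene, was at 153 and 44.3 CPM (log2 difference 1.78), and Srebf2, the regulator of the pathway, was at 69.1 and 22.7 CPM (log2 difference 1.63). Of 14 tested imprinted genes, Ndn was higher, Peg3 lower, Cdkn1c within 1.5-fold and 11 were unresolved, so the calls each way were below the 17.2% and 12.8% of all genes.

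The lists above were taken from general knowledge, and the series also gives a measure of the XX programme of its own. Genes that differed between XX and XY germ cells after 24 h in DMSO, in the first library pool, were called with the same test, and none of those libraries is a member of the 72 h comparison, although they share indices with 72 h libraries. Of the 914 genes higher in XX at 24 h (5.99% of those tested), 371 (40.6%) were lower in MEKi than in XX at 72 h, 61 (6.67%) higher, 41 (4.49%) within 1.5-fold and 441 unresolved, with a median log2 difference of -0.77. Over all genes, 17.2% were higher, 12.8% lower and 15.3% within 1.5-fold. Of the 610 genes higher in XY at 24 h (4.00%), 357 (58.5%) were higher in MEKi, 10 (1.64%) lower and 28 (4.59%) within 1.5-fold, with a median of 1.44. The 610 include Y-linked genes such as Uba1y, Zfy1 and Eif2s3y, which XX cells cannot express. With the limit on carry-over taken out, 38.7% of the XX genes were lower and 7.44% higher, and 52.8% of the XY genes were higher. Of the 354 genes (2.32% of those tested) that rose in XX between 0 h and 24 h, 139 (39.3%) were lower in MEKi at 72 h, 73 (20.6%) higher and 30 (8.47%) within 1.5-fold, with a median of -0.45. Of the 139 genes (0.911%) that fell in XX over the first 24 h, 62 (44.6%) were higher in MEKi and 2 lower, with a median of 1.14. Leaving out 1 library at a time moved the share of the 914 genes within 1.5-fold to between 2.63% (without XX replicate 4) and 4.05%, and it was under 3% also without XX replicate 8, XX replicate 11 or MEKi replicate 4.

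**Figure D4:**
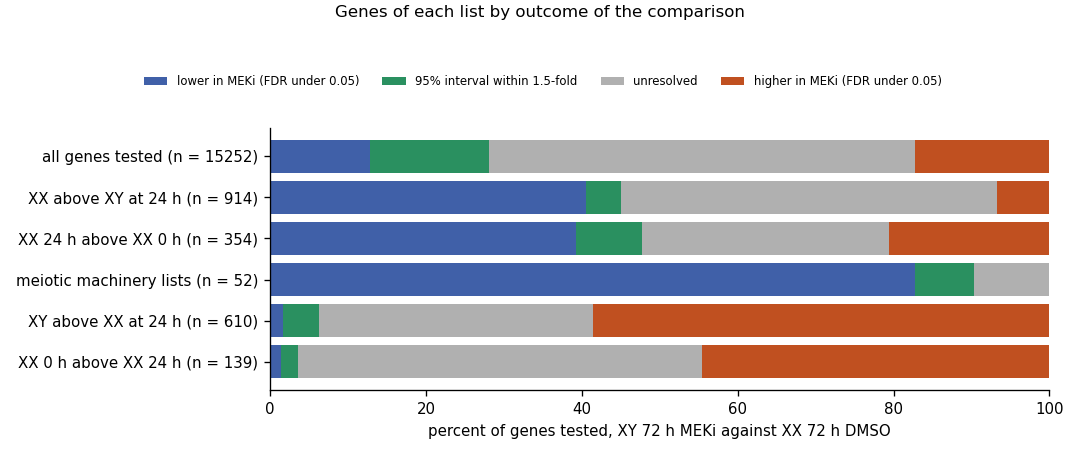
Percent of the tested genes of each list (horizontal axis) that were lower, within 1.5-fold, unresolved or higher in XY 72 h MEKi than in XX 72 h DMSO germ cells. Rows are all genes, genes higher in XX or in XY at 24 h, genes that rose or fell in XX between 0 h and 24 h, and the meiotic machinery lists. The lower class takes 82.7% of the machinery row and 40.6% of the row of genes higher in XX at 24 h, beside 12.8% for all genes.

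The 10 genes of the 914 with the narrowest interval inside 1.5-fold were Fam50a, Rp9, Chd3, E130308A19Rik, Mllt3, Mxd4, Nicol1, Dgat2, Ethe1 and Sbf2, none of them in a meiotic list. Chd3, a chromatin remodeller of the NuRD complex, was at 89.2 ± 7.83 CPM in MEKi and 107 ± 21.8 CPM in XX (interval -0.41 to 0.04). Mxd4, a MAX partner that opposes MYC, was at 83.0 and 84.1 CPM (interval -0.22 to 0.26). XY DMSO cells had 130.0 ± 11.2 CPM of Chd3 and 55.6 ± 5.19 CPM of Mxd4. Against XX, the XY DMSO cells were also within 1.5-fold for Fam50a, Chd3, E130308A19Rik, Nicol1, Dgat2 and Ethe1, unresolved for Mllt3, Mxd4 and Sbf2 (log2 difference 0.36, -0.59 and 0.35), and lower for Rp9 (-0.995).

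X-linked genes were examined because XX germ cells hold 2 active X chromosomes once the inactive X is reactivated. Among 635 tested X-linked genes the median log2 difference between MEKi and XX was -0.000402, beside 0.13 for 14335 autosomal genes. Of the X-linked genes, 127 (20.0%) were lower and 110 (17.3%) higher in MEKi, beside 1794 and 2469 of the autosomal genes. X-linked genes took 3.16% to 3.33% of the counts in MEKi, 3.61% to 3.98% in XX and 2.94% to 3.02% in XY DMSO. The MEKi and XX ranges were separate (exact permutation test, two-sided p = 0.0286, adjusted p = 0.0571). Kdm6a, an X-linked histone demethylase, was at 21.8, 39.7, 29.7 and 28.6 CPM in MEKi and 247, 227, 210.3 and 214 CPM in XX (log2 difference -2.85 ± 0.13 SE, FDR = 1.37e-21). Kdm5c, another X-linked demethylase with a copy on the Y, was lower by less (log2 difference -0.83), and Ddx3x and Eif2s3x were unresolved. Xist, the RNA that coats the inactive X, was at 6.45, 9.13, 8.13 and 6.27 CPM in MEKi and 49.0, 34.1, 40.8 and 66.4 CPM in XX (log2 difference -2.59 ± 0.24 SE, FDR = 6.09e-10).

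**Figure D5:**
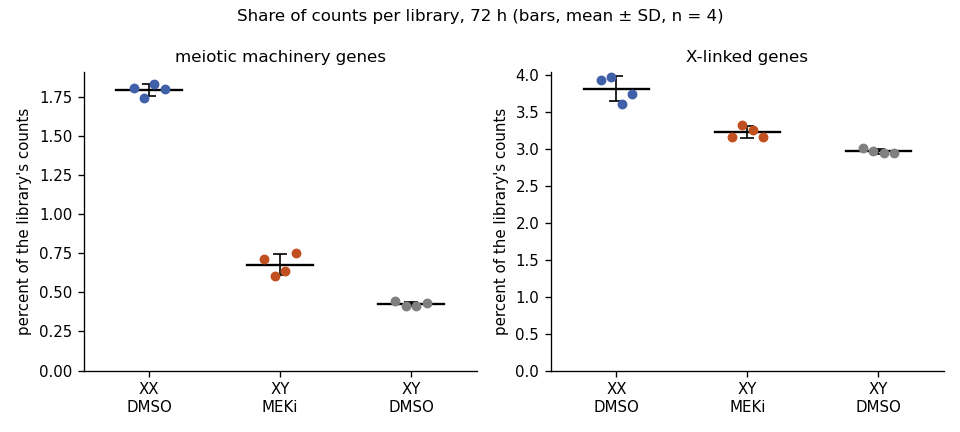
Percent of each library's counts (vertical axes, from 0) from the 54 counted meiotic machinery genes and from X-linked genes, in XX DMSO, XY MEKi and XY DMSO germ cells at 72 h. Points are libraries and bars the mean ± SD (n = 4). MEKi libraries lie between the other groups in both panels, at 0.607% to 0.751% and at 3.16% to 3.33%.

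Markers of the other cells of the gonad took small shares of the counts in both groups, but some were clearly detected. Sox9 was at 11.8 to 25.6 CPM in MEKi and 3.88 to 9.64 CPM in XX. Aard was at 10.2 to 36.2 and 5.35 to 12.9 CPM, and neither was called. Wt1 was at 6.45 to 14.0 CPM in MEKi and 15.5 to 32.1 CPM in XX. Of 46 somatic and blood markers, 29 were tested, with 3 higher in MEKi (17.2% of all genes), 4 lower (12.8%) and 22 unresolved. Foxl2 and Irx3 (ovarian support cells), Wt1 (support cells of both gonads) and Hsd3b1 (steroid cells) were lower in MEKi, and Cldn11 (Sertoli cells), Pax8 and Lhx1 (mesonephros) were higher. Foxl2 was at 0, 3.04, 1.59 and 1.57 CPM in MEKi and 6.71, 6.02, 7.76 and 17.1 CPM in XX. The summed ovarian support cell markers took 0.00411% to 0.00583% of counts in MEKi and 0.00488% to 0.00775% in XX, the Sertoli markers 0.00411% to 0.0123% and 0.00401% to 0.00576%, and the Leydig and stromal markers 0.00692% to 0.0168% and 0.00742% to 0.0121%. Blood markers took 0.00171% to 0.00443% in MEKi and 0.0020% to 0.00265% in XX. Endothelial markers (0.00119% to 0.00323% against 0.000612% to 0.0010%) and mesonephros markers (0.00264% to 0.00368% against 0.000586% to 0.00115%) were higher in every MEKi library than in any XX library. MEKi replicate 3 had the highest Sertoli, Leydig and blood shares of the MEKi libraries. The Sertoli gene Amh had 2 counts in all MEKi libraries together and 0 in XX, and the Leydig gene Insl3 had 0 in both. The part of somatic RNA in the other results was not tested.

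The 10 higher genes with the largest log2 difference among those that did not overlap held 5 Y-linked genes (Uba1y, Gm2098, Zfy1, Eif2s3y and Zfy2), of which Gm2098 is annotated as a pseudogene, and Lefty1. The other 4 were Radx, Asb9, Fbxo40 and Zbtb16. Radx (chrX:138381113-138455333, + strand), an X-linked gene whose product acts at replication forks, was at 21.3, 23.8, 24.4 and 28.2 CPM in MEKi and at 0 counts in all XX libraries, and was thus at least 55.8-fold higher against a floor of 3 counts over the XX group. XY DMSO cells had 22.8, 17.6, 15.3 and 9.29 CPM. Fbxo40, an F-box protein of ubiquitin ligases, was at 13.3 ± 2.31 CPM in MEKi and at 0 counts in XX, at least 30.4-fold higher. Zbtb16, the zinc finger protein PLZF of spermatogonia, was at 27.8, 27.2, 30.3 and 39.6 CPM in MEKi and 1.03, 0, 0 and 1.07 CPM in XX (log2 difference 5.46 ± 0.77 SE, FDR = 4.49e-07).

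The 10 lower genes by the same rule held 5 annotated long non-coding RNAs (Gm13269, Gm44113, Gm44601, Gm20663, which DESeq2 did not call, at -4.55, and 4930592C13Rik), the unclassified transcript Gm37296 and, among the coding genes, Sis, Ccdc201 and Stkld1. Sis, an intestinal sugar-cleaving enzyme, was at 0, 0.358, 0 and 0 CPM in MEKi and 20.1, 5.35, 12.3 and 13.4 CPM in XX. Gm13269 (chr2:14745183-14771835, - strand), a long non-coding RNA with the largest difference of this set, was at 0, 0.537, 0.396 and 0 CPM in MEKi and 41.8, 23.4, 34.3 and 24.1 CPM in XX (log2 difference -6.31 ± 0.53 SE, FDR = 2.35e-13).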

How the data were processed

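RNA was measured in 40 libraries of sorted germ cells, 4 for each of 10 groups, and 8 of them were compared here. The authors tagged each sample with an index and unique molecular identifiers at poly(A) priming, pooled the samples into 2 pools, demultiplexed the reads with scPipe, aligned them to GRCm39 with Rsubread, assigned them to exons by strand and deposited counts of unique molecules per gene without normalization. The reference is named as GENCODE, without a release, in the sources used here. Gene IDs were matched to GENCODE M39, with 40391 of 42422 found, and the 2031 others held 1.05% of counts.

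Libraries were grouped by their labels. All 40 libraries were fitted in a single model with 1 mean per group in limma 3.58.1 with TMM scaling from edgeR 4.0.16 (R 4.3.3), after filterByExpr (minimum count 10) had kept 15252 genes with 99.2% of counts, with voom and sample quality weights. Differences were tested with treat against 1.5-fold, with Benjamini-Hochberg adjustment and a threshold of 0.05. A gene was called within 1.5-fold where the 95% interval lay inside it. The pipeline was tested on simulated data. Shares of counts were compared by the exact permutation test over 70 regroupings of 4 against 4 libraries, and p-values measure the spread between pools of gonads.

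Genes named in the text were those of the lists, the 10 highest and 10 lowest by log2 difference among called genes whose libraries did not overlap, and the 10 genes higher in XX at 24 h with the narrowest interval within 1.5-fold. Members and lists were chosen with earlier results of these data known. A few members of these sets are not reported here. Alternatives were no filter, other scaling, edgeR, DESeq2 1.42.0, no fold in the test, the 8 libraries only, replicate blocks and leaving out each library. Removal of same-index counts was chosen after seeing the data. Totals ran from 1178953 to 5199153 counts in the 40 libraries, and precision for low genes is set by the XX libraries, where 3 counts over the group are 0.438 CPM.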

Additional observations from a re-analysis of the deposited data

Results flagged for a closer look

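In 58 sets of 4 libraries checked for a single library far from the other 3 by Dixon's test, 3 libraries stood apart, and chance gives about 1 in 20. Id1 was at 9.93 CPM in MEKi replicate 2, against 14.1 to 14.5 CPM in the other MEKi libraries. The Leydig and stromal markers took 0.0168% of counts in MEKi replicate 3, against 0.00692% to 0.00830% in the others. Sycp3 was at 1542 CPM in XX replicate 7, against 1979.7 to 2024 CPM in the other XX libraries.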

How the results depend on the processing

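Of 48 named genes, 43 kept their call and direction in every alternative, and 902 of 912 combinations of gene and setting did. Without the filter on low counts, 2 DNA methylation genes were higher in MEKi than in XX (main 4). Testing against no fold, with an observed fold over 1.5, gave 4422 higher and 3364 lower genes (main 2622 and 1956), 7 DNA methylation genes higher, 14.1% of the 24 h XX genes higher (main 6.67%), and 2375 higher and 2373 lower genes in MEKi against XY DMSO (main 611 and 780). For MEKi against XY DMSO, edgeR gave 926 higher genes and DESeq2 397, and with DESeq2 4.38% of the 24 h XX genes were higher. The 24 h XX list, 914 genes, held 2379 without a fold in the test and 1381 with edgeR. The cause of these shifts was not tested. The median log2 difference of all genes was 0.12, 0.01 with the 8 libraries only and -0.42 without the filter.

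No paired analysis was possible for MEKi against XX because the groups share only replicate number 4. With a replicate block among the XY 72 h libraries, 645 genes were higher and 733 lower in MEKi than in XY DMSO, beside 631 and 744 without it. With the block at 24 h the XX list held 361 genes, of which 46.8% were lower in MEKi, beside 807 genes in the same libraries without it. Same-numbered libraries correlated in their deviations at 0.0247 to 0.209 (MEKi and XY DMSO, 3 numbers) and at 0.314 and -0.115 (24 h, 2 numbers), so the numbers were not taken to pair them.

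Leaving out 1 library moved the share of 24 h XX genes within 1.5-fold to between 2.63% and 4.05% (main 4.49%), and the difference in Leydig and stromal marker share to between -0.00243 (without MEKi replicate 3) and 0.000862 percentage points (main -0.000187). Differences in other shares, none of them called, also moved by over 1.5 times, to 0.000568 without MEKi replicate 3 for Sertoli markers (main 0.00235), 0.000230 without MEKi replicate 3 and 0.00114 without MEKi replicate 4 for blood markers (main 0.00070), -0.000592 without XX replicate 11 for ovarian support cell markers (main -0.00118), and -0.347 without MEKi replicate 2 and -0.133 without MEKi replicate 4 for mitochondrial genes (main -0.218). The XX libraries held fewer counts than most MEKi libraries, which limits low genes, and 8345 of 15252 genes were unresolved.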
